A study of Mus musculus with 9 samples.

Results

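The 10 genes described here are the imprinted genes Meg3, Rian, Mirg, Dlk1, H19, Igf2, Peg3, Peg10, Snrpn and Impact, taken by their symbols from the 24132 gene rows measured in 3 mouse ESC lines. An imprinted gene is transcribed mainly from the chromosome of one parent, because the parental copies carry different DNA methylation at a control region set in the germ line. The usual active copy is maternal for the noncoding RNAs Meg3, Rian, Mirg and H19, and paternal for Dlk1, Igf2, Peg3, Peg10, Snrpn and Impact. Imprinted genes are known to be unstable in cultured ESCs, where single lines and clones can gain or lose methylation at a control region. The values below sum both parental copies, so they give RNA levels and not the imprint itself.

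The libraries came from RIPiT-seq, in which formaldehyde-fixed ESCs (129/B6 F1 hybrid, grown without feeder cells and with LIF) are lysed and a tagged protein is purified through its FLAG tag and then its HA tag before the bound RNA is sequenced. The protein was WDR5, a subunit of the MLL histone methyltransferase complex, and the comparison asked which RNAs accompany WDR5 with an intact RNA-binding surface. Of the 3 lines, WT carried lentiviral FLAG-HA-tagged human WDR5, F266A carried the same protein with the phenylalanine named in F266A changed to alanine, and empty vector received a lentivirus without tagged WDR5. Each line gave 1 input library and 2 IP libraries, 9 in all. The tagged lines are selected single clones in which no knockdown of mouse WDR5 is described, the F266A construct also lacks a short stretch of the N terminus, and the empty vector IPs hold whatever RNA the beads retained without a tagged protein. A difference between lines can therefore not be told apart from a difference between clones.

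Estimated depth was 37400000 to 50400000 mapped reads in the inputs and 13400000 to 27400000 in the IPs. All 8 ESC markers were present in every library, at a summed RPKM of 500.4, 679 and 618 in the input, IP1 and IP2 of empty vector, 417, 464 and 553 in F266A, and 462, 569 and 564 in WT. Pou5f1, a core pluripotency factor, was called lower in the F266A than in the empty vector IPs (-0.83, SE 0.18, limma adjusted p = 0.0434) and not without F266A IP1 (-0.57, limma adjusted p = 0.0814), and the median of the 8 markers was -0.35 against -0.0050 over all genes tested. Of the fibroblast markers, 9 of 10 stayed below 1 RPKM everywhere, with 2 of them at 0. One library stood apart. F266A IP1 held a summed 0.0383 RPKM of the Y-linked genes Ddx3y, Uty and Eif2s3y, against 4.43 in the F266A input and 7.21 in F266A IP2, while the empty vector libraries held 7.41 to 9.48 and the WT libraries 0.182 to 0.325. In this RNA it was unlike the other F266A libraries, so it is not shown to come from the same clone, and the F266A means and SEs over 2 IPs may not describe 1 clone. Over the genes tested, F266A IP1 had a Pearson r of 0.976 with WT IP1 and 0.962 with WT IP2. Its r was 0.973 with F266A IP2 and 0.964 with the F266A input. The summed RPKM of 16 primitive endoderm markers, genes of the extraembryonic lineage that ESC cultures can shed, was 75.6 in the F266A input and 95.2 in F266A IP2 but 37.0 in F266A IP1, where the other 2 lines held 35.1 to 45.1. The sum does not show F266A IP1 to be free of these markers. Gata4 was 0.695 and Dab2 0.916 RPKM there, against at most 0.171 and 0.261 in the other 2 lines. Sparc went the other way, at 12.2 RPKM against at least 14.9 in those lines. Of these 16 genes 7 were below 1 RPKM in every library and 0 were at 0 throughout. Of the 9 tested, 0 were called between the F266A and empty vector IPs (4 at an unadjusted p under 0.05, median 0.87), and 7 rose once F266A IP1 was left out (median 1.61). The part of these markers in the differences between lines was not tested. The calls between lines are given with and without F266A IP1.

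The noncoding RNAs Meg3, Rian and Mirg of the imprinted domain on chromosome 12 run in 1 direction and are the best represented noncoding members. On mm9, Meg3 lies at chr12:110779211-110809936, Rian at chr12:110842155-110899919 and Mirg at chr12:110973191-110987665, all on the plus strand, 32218 bases and 73271 bases apart. Dlk1 lies 77664 bases before Meg3. The promoter window of Meg3 (RefSeq, GRCm38.p6, chr12:109540746-109541045, plus strand, 250 bases before to 50 after the start) holds 13 CpG sites. The 250 bases before the start of Peg3 (chr7:6730420-6730669, minus strand) hold 8 CpG sites. Both are shown because methylation of these regions differs between the parental copies, at Peg3 as part of a control region set in the germ line and at Meg3 as a region that acquires the difference after fertilization. Capitals mark TGACGTCA, the cAMP response element, which is the same on both strands, and GCGGCA, the reverse complement of the TGCCGC bound by ZFP57, the factor that protects methylated imprints.
Meg3 promoter: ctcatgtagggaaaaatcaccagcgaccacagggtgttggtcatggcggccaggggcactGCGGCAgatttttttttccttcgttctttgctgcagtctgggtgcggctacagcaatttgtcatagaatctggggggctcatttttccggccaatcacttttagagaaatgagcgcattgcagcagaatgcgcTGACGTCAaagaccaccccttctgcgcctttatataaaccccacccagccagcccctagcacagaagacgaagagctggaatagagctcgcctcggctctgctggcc
Peg3 promoter: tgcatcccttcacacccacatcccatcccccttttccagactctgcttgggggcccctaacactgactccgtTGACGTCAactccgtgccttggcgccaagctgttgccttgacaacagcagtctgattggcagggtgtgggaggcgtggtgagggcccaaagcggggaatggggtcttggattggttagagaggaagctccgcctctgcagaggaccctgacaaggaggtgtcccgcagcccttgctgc

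TGACGTCA was present in 1.79% and TGCCGC, on either strand, in 11.6% of the 32851 promoter windows of the RefSeq table. The table holds 14 windows for 7 of the 10 genes. TGACGTCA was found in these 2 windows and in no other of the 14. TGCCGC was found in 3, namely the Meg3 window printed, 1 of Igf2 and 1 of Snrpn, and the second Meg3 window held neither motif. The search letters were chosen after the windows had been read. These matches describe the letters and are no evidence of a bound factor.

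**Figure D1:**
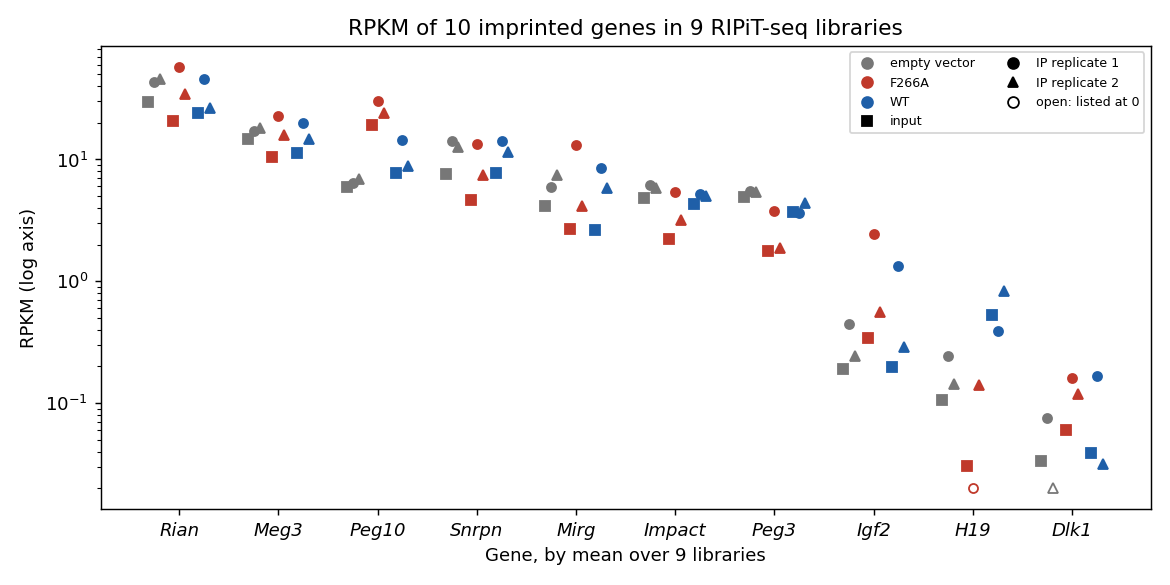
RPKM of the 10 imprinted genes (log axis) in each of the 9 libraries, ordered by mean. Squares are inputs, circles IP1 and triangles IP2, coloured by line, with open symbols at the lower edge for the 2 values listed at 0. Rian is highest at 20.6 to 57.4 RPKM, and Igf2, H19 and Dlk1 lie at the bottom.

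Levels per kilobase of transcript separated the genes into an expressed and a nearly silent group. By mean RPKM over the 9 libraries, Rian came first (36.5), then Meg3 (16.1), Peg10 (13.8), Snrpn (10.3), Mirg (6.04), Impact (4.68), Peg3 (3.90), Igf2 (0.673), H19 (0.268) and Dlk1 (0.0760). Rian was above Meg3, Snrpn above Mirg and Peg3 above Igf2 in 9 of 9 libraries. The place of Peg10 depended on the line. Meg3 exceeded Peg10 in the 6 empty vector and WT libraries and in 0 of 3 of F266A, whereas Peg10 exceeded Snrpn in 3 of 3 of F266A, 1 of 3 of WT and 0 of 3 of empty vector, and over the 6 libraries without F266A Peg10 (8.36) came after Snrpn (11.3). Mirg exceeded Impact in 6 of 9 libraries, and their values overlapped. Of the 10 genes, 8 reached 1 RPKM in at least 2 libraries and entered the test across 9787 genes. Dlk1 and H19 did not, and Igf2 did so only through IP1 of F266A and IP1 of WT.

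Peg10, a gene derived from a retrotransposon and needed for the placenta, was the only member called between lines and was highest in F266A. It lies at chr6:4697306-4710514 on the plus strand of mm9. In the order input, IP1, IP2, which is kept below, its RPKM was 5.95, 6.35 and 6.90 in empty vector, 19.3, 30.2 and 24.3 in F266A, and 7.68, 14.4 and 8.91 in WT. Every F266A library, the input included, was above every library of the other lines. The IP means were 6.62 ± 0.390 in empty vector, 27.2 ± 4.18 in F266A and 11.6 ± 3.88 in WT (RPKM, SD, n = 2 each), and F266A was 4.11-fold above empty vector and 2.34-fold above WT (3.66-fold and 2.08-fold with F266A IP2 alone). The inputs, which no tag selects, differed by 3.25-fold and 2.52-fold.

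In limma on log2 (RPKM + 1), Peg10 rose by 1.88 in the F266A IPs over the empty vector IPs (SE 0.21, adjusted p = 0.0105) and was the only member called, where 1.16% of all genes tested were called higher and 3.38% lower. The WT IPs were lower than the F266A IPs by a log2 difference of -1.18 (SE 0.21, adjusted p = 0.0442), again the only call, where 0.388% of genes were called lower in WT and 0.777% higher. Both F266A values of Peg10 lay above the 4 other IPs, as for 12.8% of all genes tested, and both empty vector values lay below the 4 others, as for 11.9%. Between WT and empty vector the difference was 0.70 (SE 0.21, limma adjusted p = 0.721), not called, in a comparison that called 0% of genes (557 of 9787 at an unadjusted p under 0.05). These 3 comparisons share their IPs and are not independent.

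Without F266A IP1, Peg10 remained called against empty vector (limma log2 difference 1.73, adjusted p = 0.0138, where 2.16% of all genes tested were called higher and 2.75% lower) but not between WT and F266A (-1.03, adjusted p = 0.0878). The call against empty vector was lost when either empty vector IP was left out or no filter was applied, and the call between WT and F266A was lost when any of the 6 IPs was left out. Beside the Peg10 values of 19.3, 30.2 and 24.3 RPKM in the F266A libraries, the primitive endoderm sum was 75.6, 37.0 and 95.2 RPKM. In a bulk library more cells of a type that makes an RNA and more RNA per cell cannot be told apart.

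**Figure D2:**
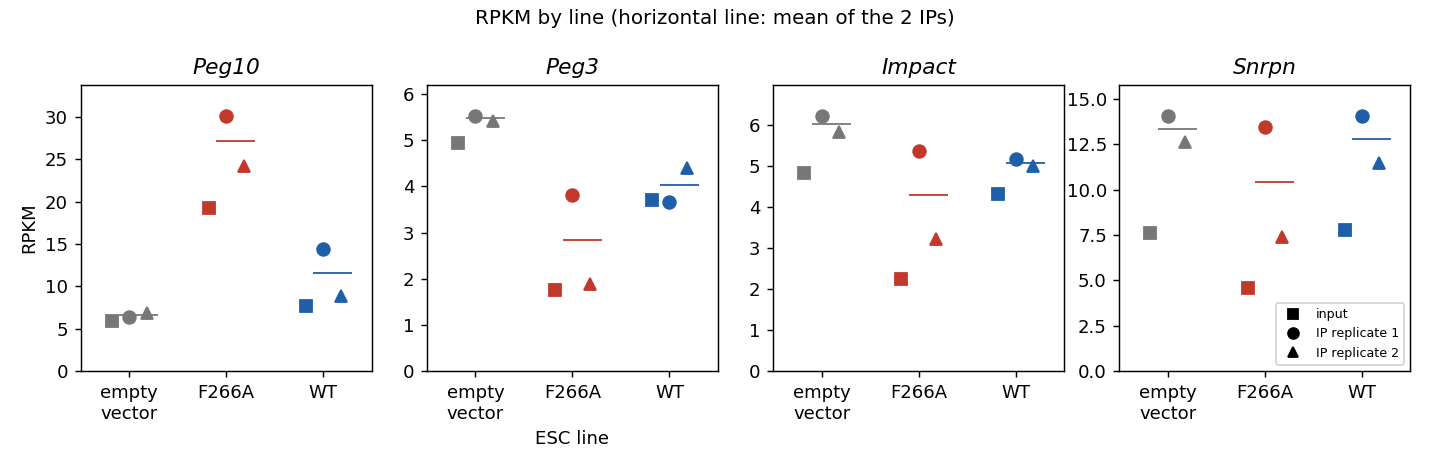
RPKM of Peg10, Peg3, Impact and Snrpn by ESC line on linear axes from 0, with squares for inputs, circles for IP1, triangles for IP2 and a horizontal line at the mean of the 2 IPs. All 3 Peg10 values of F266A (19.3 to 30.2) lie above those of the other lines, and the F266A input and IP2 hold the lowest values of the other 3 genes.

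The genes around Peg10 divided in level. Sgce, which codes for epsilon-sarcoglycan and starts 101 bases from Peg10 on the opposite strand, had low values and did not enter the test. Its RPKM was 0.122, 0.379 and 0.118 in empty vector, 0.301, 0.359 and 0.634 in F266A, and 0.202, 0.308 and 0.300 in WT. The highest value was in F266A IP2, while F266A IP1 lay below empty vector IP1. Ppp1r9a, which codes for the actin-binding neurabin 1 and lies 142489 bases beyond Peg10, had 3.28, 3.63 and 3.87 RPKM in empty vector, 5.54, 6.47 and 7.22 in F266A, and 3.49, 3.55 and 4.93 in WT. All its F266A values were above all others. In the F266A IPs it rose by 0.72 over empty vector (SE 0.15, limma adjusted p = 0.0392), and without F266A IP1 by 0.79 (SE 0.17, limma adjusted p = 0.0497). The difference between WT and F266A was -0.59 (SE 0.15, limma adjusted p = 0.117).

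Peg3, a large zinc finger protein gene at chr7:6656603-6683132 on the minus strand, ran the other way. Its RPKM was 4.94, 5.53 and 5.41 in empty vector, 1.76, 3.81 and 1.89 in F266A, and 3.71, 3.65 and 4.40 in WT. The F266A input and F266A IP2 were the 2 lowest values, and F266A IP1 lay with the WT libraries. Both empty vector IPs were above the 4 others, as were 10.4% of all genes tested. The IP means were 5.47 ± 0.0839 in empty vector, 2.85 ± 1.36 in F266A and 4.02 ± 0.529 in WT (RPKM, SD, n = 2 each).

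The difference in Peg3 between F266A and empty vector IPs was -0.80 (SE 0.22, 95% interval -1.29 to -0.30) and was not called (limma adjusted p = 0.0828). Without F266A IP1 it was -1.16 and called (limma adjusted p = 0.00992), and Peg3 was then also called higher in WT than in F266A (0.80, limma adjusted p = 0.0410), where 1.09% of all genes tested were called higher in WT. The 2 lowest Peg3 values were in the 2 libraries with the highest primitive endoderm sums, 75.6 and 95.2 RPKM, and the part of these markers was not tested. The antisense RNA listed as Peg3as (RefSeq Peg3os) followed Peg3 with a Pearson r of 0.995 over the 9 libraries. All 865 bases of its span lie within that of Peg3 in the RefSeq annotation of GRCm38.p6, and the strand setting of the counting is not given in the sources used here, so reads of this pair cannot be told apart.

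Impact, on chromosome 18, codes for an inhibitor of the amino acid sensor kinase GCN2. Its RPKM was 4.83, 6.22 and 5.82 in empty vector, 2.24, 5.36 and 3.21 in F266A, and 4.30, 5.16 and 4.99 in WT. As for Peg3, both empty vector IPs were above the 4 others and the F266A input and IP2, the libraries with the high primitive endoderm sums, were the lowest values. The difference between F266A and empty vector IPs was -0.44 (SE 0.18, limma adjusted p = 0.225), and without F266A IP1 it was -0.74 and called (limma adjusted p = 0.0225).

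Snrpn, at chr7:67127388-67285105 on the minus strand, codes for a core protein of spliceosomal ribonucleoproteins in the domain linked to Prader-Willi syndrome in people. It had 7.60, 14.1 and 12.6 RPKM in empty vector, 4.60, 13.4 and 7.39 in F266A, and 7.76, 14.1 and 11.5 in WT. Only the F266A input and IP2, again those with the high primitive endoderm sums, fell below the lowest value of the other lines. The difference between F266A and empty vector IPs was -0.38 (SE 0.24, limma adjusted p = 0.399), and without F266A IP1 it was -0.77 and called (limma adjusted p = 0.0437). Snurf, the reading frame upstream in the same transcript, was 1.20 to 1.21 times Snrpn in every library, so the 2 rows count largely the same reads. Leaving out F266A IP1 thus moved the estimates of Peg3, Impact and Snrpn against empty vector further from 0. Such a fit takes the remaining F266A IP to vary like the other groups. F266A IP1 was above F266A IP2 for all 8 members tested and for 57% of all genes tested, so leaving it out lowers each of these estimates. With F266A IP2 left out instead, the differences were -0.43 for Peg3, -0.14 for Impact and 0.01 for Snrpn. With all 9 libraries, an additive fit of line and fraction takes each input as a further library of its line. Beside Peg10 it called Peg3 (-0.90, limma adjusted p = 0.00561) and Impact (-0.58, limma adjusted p = 0.0284), and not Snrpn. That fit called 1635 of the 9787 genes tested, where the main fit called 445. In the inputs F266A was the lowest of the 3 for these genes and for Meg3 and Rian, 5 of the 8 members tested, and so it was for 58.9% of all genes tested.

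**Figure D3:**
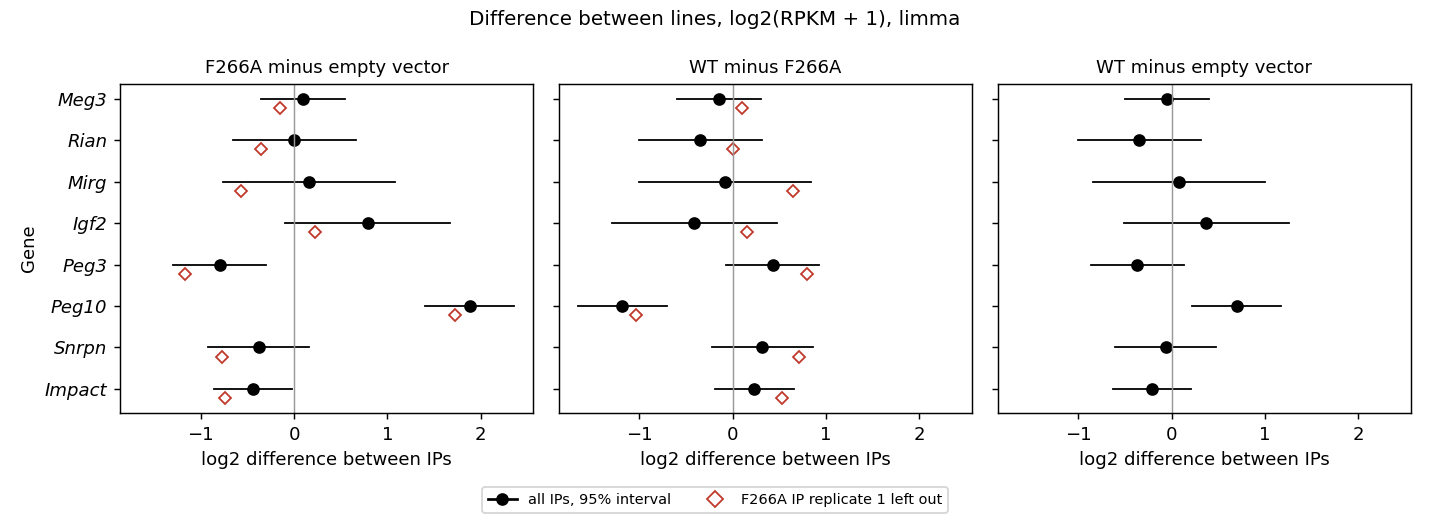
Differences between the IPs of 2 lines in log2 (RPKM + 1) for the 8 genes tested, with 95% intervals from limma (black) and the estimate without F266A IP1 (open red diamonds). Only Peg10 was called, at 1.88 for F266A minus empty vector and -1.18 for WT minus F266A, and the estimates for Peg3, Snrpn and Impact move away from 0 without F266A IP1.

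The maternal RNAs of the chromosome 12 domain did not separate the lines. Meg3, a long noncoding RNA, had 14.7, 17.3 and 18.2 RPKM in empty vector, 10.5, 22.9 and 15.9 in F266A, and 11.4, 19.8 and 14.7 in WT. Rian, the host of a large array of C/D box snoRNAs, had 29.6, 43.3 and 46.0 RPKM in empty vector, 20.6, 57.4 and 34.7 in F266A, and 24.1, 45.9 and 26.4 in WT. Mirg, a host of microRNAs, had 4.16, 5.89 and 7.45 RPKM in empty vector, 2.67, 13.1 and 4.16 in F266A, and 2.66, 8.46 and 5.86 in WT. For all 3 RNAs the IPs of the lines overlapped, and IP1 was above IP2 in F266A and WT and below it in empty vector. Of all genes tested, 57% had IP1 above IP2 in F266A, 49% in WT and 53.2% in empty vector. F266A IP1 held the highest value of all 3 RNAs, as it did for 5 of the 8 members tested and for 21.5% of all genes tested.

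The limma difference of Meg3 between F266A and empty vector IPs was 0.10 (SE 0.20, 95% interval -0.35 to 0.55, adjusted p = 0.826), that of Rian was 0.0018 (SE 0.29, adjusted p = 0.998) and that of Mirg was 0.16 (SE 0.40, adjusted p = 0.862). The intervals of Rian (-0.66 to 0.66) and Mirg (-0.76 to 1.08) still allow sizeable differences in either direction. Without F266A IP1 the estimates were -0.15, -0.35 and -0.57, and none was called. The 3 RNAs moved together across libraries, with a Pearson r of 0.968 for Meg3 with Rian and 0.954 for Meg3 with Mirg over 9 libraries that share inputs and depth. Rian stayed at 1.79 to 2.52 times Meg3, while Mirg ranged from 0.234 times Meg3 in the WT input to 0.574 times in F266A IP1. Rtl1, the retrotransposon-derived gene on the opposite strand between Meg3 and Rian, had 0.793 to 1.64 RPKM and was called in no comparison.

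Dlk1, a transmembrane protein related to Notch ligands and the paternal counterpart of Meg3, was nearly absent. It had 0.0331, 0.0747 and 0 RPKM in empty vector, 0.0603, 0.161 and 0.118 in F266A, and 0.0387, 0.166 and 0.0314 in WT, which correspond to at most 25.7 estimated reads. Its neighbour Dio3, a thyroid hormone deiodinase, had 0.0143 to 0.252 RPKM. With 1 value listed at 0, no fold is given for Dlk1.

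Small RNA genes of these loci were mostly at the limit of detection. Of 58 listed microRNA and snoRNA genes, 55 had a row, 7 of these were at 0 in all 9 libraries and 7 were above 0 in every library. The rows hold reads over the hairpin gene in libraries of long RNA and so do not measure mature microRNAs. In the test of IPs against inputs 4 of the 13 tested were called, all higher in the IPs, beside 56.4% of all genes tested, and between lines 0 were called by limma (1, 0 and 1 at an unadjusted p under 0.05 in F266A against empty vector, WT against F266A and WT against empty vector). The mature sequences of these 4 follow with those of Mir675, which lies inside H19. Capitals mark the seed (bases 2 to 8), by which a microRNA pairs with its targets.
mmu-miR-665-5p: aGGGGCCUcugccucuauccaggauu
mmu-miR-665-3p: aCCAGGAGgcugaggucccu
mmu-miR-127-5p: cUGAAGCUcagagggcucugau
mmu-miR-127-3p: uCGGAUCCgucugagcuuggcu
mmu-miR-377-5p: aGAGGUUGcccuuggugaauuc
mmu-miR-377-3p: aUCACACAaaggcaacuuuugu
mmu-miR-410-5p: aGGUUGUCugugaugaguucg
mmu-miR-410-3p: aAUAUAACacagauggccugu
mmu-miR-675-5p: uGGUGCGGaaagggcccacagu
mmu-miR-675-3p: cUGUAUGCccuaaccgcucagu

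No pair of these 10 sequences (RefSeq, GRCm38.p6) shares a seed. Within the microRNA table, miR-410-5p shares its seed with miR-494-5p of the same cluster, miR-377-5p with miR-672-5p, and miR-410-3p with miR-344d-3p and miR-344e-3p. Mir665 was by far the most abundant row, at 9.24, 13.7 and 18.7 RPKM in empty vector, 3.88, 15.8 and 11.3 in F266A, and 5.40, 18.8 and 10.2 in WT. Every IP was above every input, and the limma difference of IPs against inputs was 1.17 (SE 0.20, adjusted p = 0.00396) on 13.6 to 48.4 estimated reads. For Mir127, which lies opposite Rtl1 and pairs with its transcript, the same difference was 0.85 (SE 0.12, limma adjusted p = 0.00299), and for Mir410, inside Mirg, it was 0.91 (SE 0.16, limma adjusted p = 0.00416). These rest on at most 5.0 and 6.73 estimated reads per library.

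H19 and Igf2, which share enhancers and an insulator on chromosome 7 and are 72624 bases apart there, were low in all lines. H19, a growth-restraining noncoding RNA at chr7:149761434-149764048 on the minus strand, had 0.106, 0.243 and 0.142 RPKM in empty vector, 0.0306, 0 and 0.141 in F266A, and 0.531, 0.390 and 0.826 in WT. All 3 WT values were above all 6 others, at 54.0, 25.3 and 51.9 estimated reads against at most 14.4 elsewhere. The F266A IPs lay below the others only by a margin of less than 1 read between F266A IP2 and empty vector IP2. For genes tested, both WT IPs were above the 4 other IPs in 5.7% and below them in 4.56%, and both F266A IPs were below in 17%, in each case with no tested member among them.

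With the filter relaxed to 0.1 RPKM in 2 libraries H19 was tested, and the difference between WT and F266A IPs was 0.58 (SE 0.14, limma adjusted p = 0.191) and that between WT and empty vector IPs 0.42 (SE 0.14, limma adjusted p = 0.852). Mir675, inside H19, was above 0 only in the WT input (0.0688 RPKM) and WT IP2 (0.890 RPKM).

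Igf2, an insulin-like growth factor gene at chr7:149836673-149852721 on the minus strand, had 0.190, 0.447 and 0.244 RPKM in empty vector, 0.342, 2.44 and 0.563 in F266A, and 0.197, 1.34 and 0.291 in WT. IP1 was above IP2 in all 3 lines, by 4.33-fold in F266A, 4.62-fold in WT and 1.83-fold in empty vector. The F266A minus empty vector difference was 0.79 (SE 0.38, limma adjusted p = 0.294) and was 0.22 without F266A IP1. Igf2 and H19 did not move together, with a Pearson r of -0.306 over the 9 libraries. WT had the most H19, and F266A had the most Igf2 in the input and, through IP1, in the IP mean. With F266A IP2 alone, Igf2 was 0.689 times the WT IP mean. All these values were low, and no difference between lines was called for either gene.

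**Figure D4:**
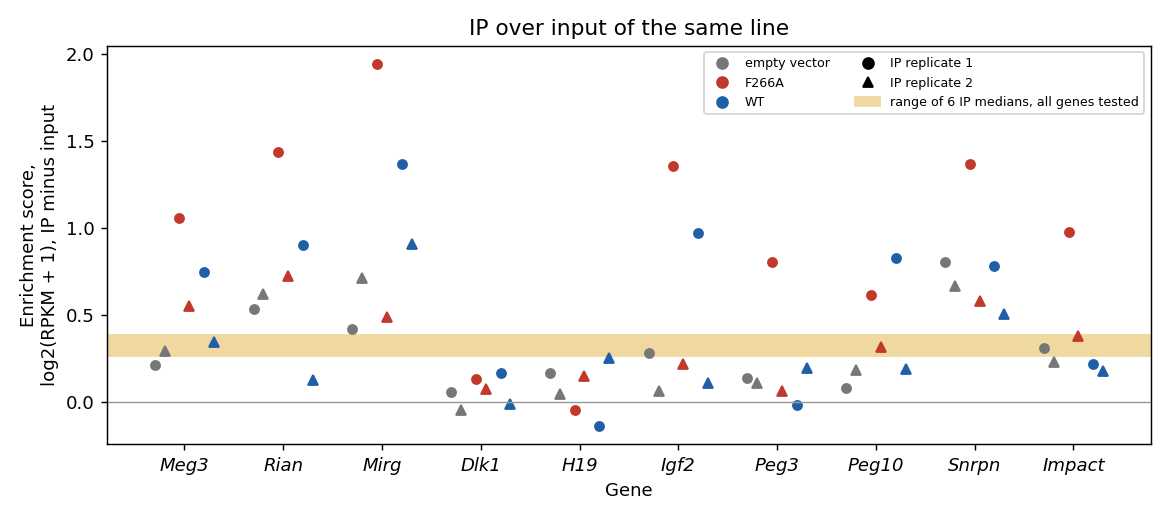
Enrichment score of the 10 imprinted genes, log2 (RPKM + 1) of an IP minus that of the input of its line, for each of the 6 IPs (circles IP1, triangles IP2). The band spans the 6 medians of all genes tested, 0.26 to 0.39, and F266A IP1 gives the highest score of Meg3, Rian, Mirg, Igf2, Peg3, Snrpn and Impact.

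Against their inputs, 5 of the 8 members tested rose in the IPs, and 56.4% of all genes tested did so too (0.47% fell), so the share is near the background. In limma, Mirg rose by 0.97 (SE 0.28, adjusted p = 0.0207), Snrpn by 0.79 (SE 0.17, adjusted p = 0.00721), Rian by 0.72 (SE 0.20, adjusted p = 0.0181), Meg3 by 0.53 (SE 0.14, adjusted p = 0.0136) and Impact by 0.38 (SE 0.13, adjusted p = 0.0357). The median over all genes tested was 0.30. Peg10 (0.37, adjusted p = 0.0597), Igf2 (0.50, adjusted p = 0.139) and Peg3 (0.22, adjusted p = 0.237) were not called by limma. All 6 IPs lay above the input of their line for 7 of the 8 members and for 66.3% of all genes tested. After centring each library on its median, or quantile normalization, 0 members were called, and the estimates of Peg10 (under quantile normalization) and Peg3 (under both) were below 0. Deposited RPKM carry the higher share of reads on genes in the IPs, 27.2% to 29.5% against 20.1% to 22.6% in the inputs.

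The enrichment of a gene over its input did not separate the lines. None of the 8 members was called by limma (0 at an unadjusted p under 0.05) when the score was compared between F266A and empty vector, WT and F266A, or WT and empty vector, and limma called 0% of all genes in each, with 243, 259 and 173 of 9787 at an unadjusted p under 0.05. For Peg10 the difference in score was 0.33 (95% interval -0.49 to 1.16) between F266A and empty vector and 0.04 (-0.79 to 0.87) between WT and F266A. The scores of Peg10 itself were 0.08 and 0.18 in empty vector, 0.62 and 0.31 in F266A, and 0.83 and 0.19 in WT, which overlap. The input of each line had no replicate, so its own spread is not in these intervals.

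In the study an RNA counted as WT-enriched when both WT scores exceeded 0 and the highest score in the other lines, a rule without an error term. Of the 10 members 0 met it, and 4.79% of the 24132 rows did. For Mirg the WT scores were 1.37 and 0.91, the empty vector scores 0.42 and 0.71, and the F266A scores 1.94 and 0.49. Mirg thus missed the rule through F266A IP1 alone, and met it when that library was left out. Leaving out a library of another line can only add rows to those that meet the rule. Without F266A IP1 it was met by 1977 of the 24132 rows, against 1157 with it.

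**Figure D5:**
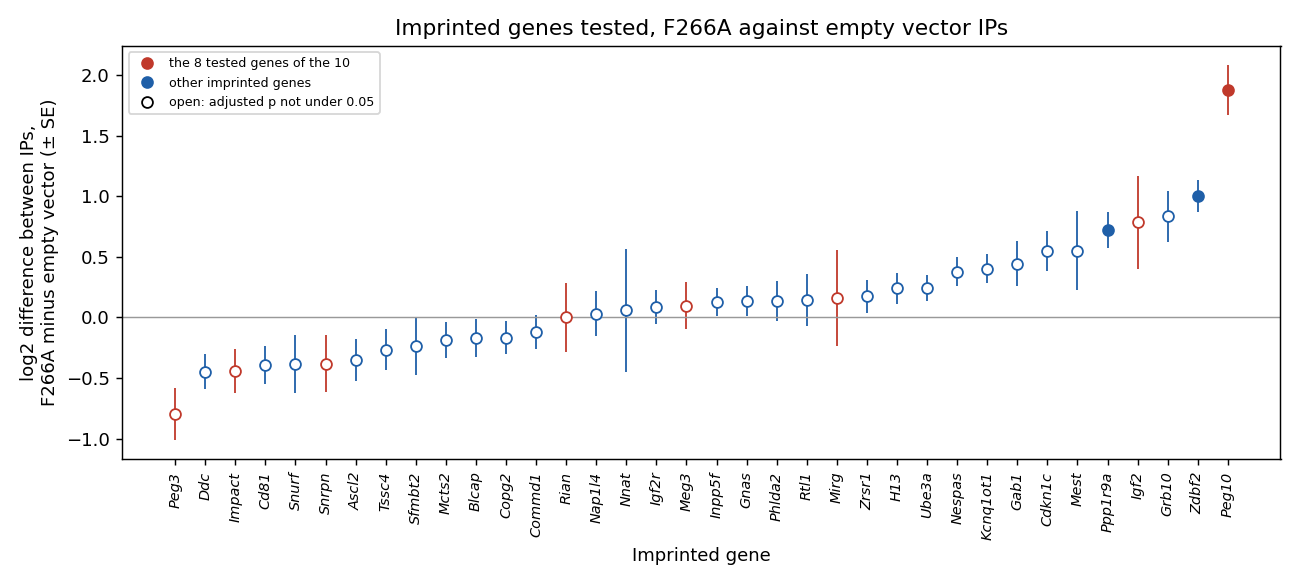
Difference of F266A minus empty vector IPs in log2 (RPKM + 1), ± SE from limma, for the 8 members tested (red) and the 28 other imprinted genes tested (blue), in order. Filled points were called, namely Peg10 at 1.88, Zdbf2 at 1.0 and Ppp1r9a at 0.72, and no imprinted gene was called lower.

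Beyond the 10 genes, a list of 64 other imprinted genes had 63 rows, of which 28 were tested. Between F266A and empty vector IPs 2 of the 28 rose and 0 fell, beside 1.16% and 3.38% of all genes tested, with a median of 0.13 against -0.0050 over all genes. Without F266A IP1, which leaves 1 F266A IP, the median of the 28 was 0.07 against -0.03 over all genes tested. That fit also called Gab1 higher and Snurf, which shares its reads with Snrpn, lower in F266A. The 2 that rose with all IPs were Ppp1r9a, given above, and Zdbf2, a paternally expressed gene of the chromosome 1 domain. Zdbf2 had 3.74, 3.24 and 3.34 RPKM in empty vector, 6.15, 8.60 and 6.71 in F266A, and 6.30, 5.78 and 5.68 in WT, and its difference was 1.0 (SE 0.13, limma adjusted p = 0.0128), or 0.85 without F266A IP1 (SE 0.12, limma adjusted p = 0.0146). Empty vector held the 3 lowest values of Zdbf2, whereas the inputs of F266A and WT lay close together. Limma called 0 of the 28 between WT and F266A (7 at an unadjusted p under 0.05) or between WT and empty vector (4), and 1, Sfmbt2, was called higher in WT than in F266A without F266A IP1. In the IPs against inputs 14 rose (Gnas, Mcts2, Sfmbt2, Mest, Cdkn1c, Nap1l4, Snurf, Cd81, Gab1, Commd1, Ddc, Blcap, Ube3a and Copg2) and 0 fell, beside 56.4% of all genes higher, at a median of 0.30 beside 0.30 over all genes. Gab1, Cd81 and Phlda2 had the highest mean RPKM of the list, at 31.3, 25.8 and 15.1.

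Other genes of the members' loci were mostly below the filter. In the Snrpn domain, Ndn had 0.207 to 0.788 RPKM, Mkrn3 0.105 to 0.464, Magel2 0.0172 to 0.101, and Peg12 0.0403 to 0.275, while Ube3a, a ubiquitin ligase imprinted in neurons, had 1.81 to 3.12. In the H19 and Igf2 region, Ins2 was listed at 0 in all 9 libraries and Cdkn1c, a CDK inhibitor, had 0.751 to 2.98 RPKM. Near Peg3, Usp29 had 0.0291 to 0.158 RPKM and Zim1 0.0863 to 0.264. Phlda2 had 10.6 to 18.5 RPKM, Tssc4 0.974 to 2.49, Kcnq1ot1 1.08 to 1.95 and Ascl2 0.505 to 1.32. Begain, near Dlk1, had 0.214 to 0.650 RPKM, Ipw 0 to 0.537 and Asb4, near Peg10, 0 to 0.0243. Of the genes of this paragraph that were tested, which are Ube3a, Cdkn1c, Phlda2, Tssc4, Kcnq1ot1 and Ascl2, limma called none between the IPs of any 2 lines (Cdkn1c, Tssc4 and Kcnq1ot1 had an unadjusted p under 0.05 in some), with or without F266A IP1.

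Most factors that set or keep imprints were expressed. Of 18 listed, 17 were tested, and Ctcfl, the germ-line relative of the insulator protein CTCF, was not, at 0 to 0.0573 RPKM. Of those tested 0 were called by limma between the IPs of any 2 lines (6, 3 and 1 at an unadjusted p under 0.05 for F266A against empty vector, WT against F266A and WT against empty vector), and 11 of 17 rose and 0 fell in the IPs against inputs, beside 56.4% of all genes higher. Without F266A IP1, Dppa3 was called lower in F266A than in empty vector. Trim28, the corepressor that ZFP57 recruits, had 57.0, 86.8 and 82.7 RPKM in empty vector, 35.7, 69.4 and 53.0 in F266A, and 49.3, 78.8 and 72.0 in WT. Zfp57 itself had 29.1, 51.0 and 54.8, then 38.4, 59.7 and 76.8, then 24.9, 47.7 and 51.6 RPKM in the same lines. Their differences between F266A and empty vector IPs were -0.47 (SE 0.16, limma adjusted p = 0.137) and 0.35 (SE 0.15, limma adjusted p = 0.244), and without F266A IP1 they were -0.67 (limma adjusted p = 0.0564) and 0.53 (limma adjusted p = 0.0891).

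Genes with the most similar pattern were ranked by Pearson r of log2 (RPKM + 1) over the 9 libraries, which share inputs, lines and depth. For Peg10 these were Cnih2 (0.982), 9830001H06Rik (0.979) and AI314180 (0.978). Peg3 was followed, after Peg3as, by Tiam1 (0.976) and Prss8 (0.972), and Impact by Actn3 (0.986), Rragb (0.981) and Tor3a (0.981). For Snrpn they were Snurf (1.0), Bri3 (0.994) and Gdf3 (0.993), and for Meg3 they were Mycbp (0.990), Sars2 (0.987) and Phf12 (0.987). For H19, which was not tested, they were Gm13157 (0.968), Gm13212 (0.964) and Gm13238 (0.957). Among the members, Peg3 and Impact (0.926) and Snrpn and Impact (0.906) ran together, and Peg3 and Peg10 ran opposite (-0.737).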

How the data were processed

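The authors mapped reads to mm9 with TopHat 1.1.3 and computed RPKM (reads divided by gene length and library depth) per RefSeq gene with their own script. These deposited RPKM were used as given, since no counts were used here. Depth was estimated from the RPKM that 1 read is worth, given exon lengths of GENCODE M1 (mm9), which also gave positions. Estimated reads cover counting error only. Enrichment scores were log2 (RPKM + 1) of an IP minus that of its input. This scale understates changes of genes at low RPKM.

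The test was limma (version 3.58.1, R 4.3.3; lmFit with 1 coefficient per line and fraction, contrasts, eBayes with a trend), applied to the 9787 genes with at least 1 RPKM in at least 2 libraries. P-values were adjusted by Benjamini-Hochberg over all of these, with 0.05 as threshold. The spread came from the 3 pairs of IPs, so p-values measure only the spread between libraries of 1 label, which may be technical and, for F266A, may not be that of 1 clone. In simulated data for F266A against empty vector IPs, a log2 change of 1 was recovered in 65 of 100 genes and one of 2 in 97 of 100, with 7 false calls among 9787 genes. The changed genes had a mean log2 (RPKM + 1) above 1, and the noise was normal with 1 spread per gene in all libraries. These figures therefore do not cover low genes such as Igf2, or F266A IPs that are unlike each other. Python 3.11.15 with pandas 2.3.3 and numpy 2.4.6 was used for other steps.

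The 10 members were all described, other imprinted genes were named when in a member's locus, called or highest, and patterns were matched as the 3 highest r. The imprint factors and small RNAs named were chosen after their values were seen. The members and gene lists were chosen with earlier results of these data known. Samples were grouped by their titles. Alternatives were pseudocounts of 0.1 and 0.01, other filters, quantile normalization, median centring, a replicate block, eBayes without trend, an additive fit of line and fraction, a common input and leaving out each IP. An additive fit without F266A IP1, and the study's rule on filtered rows, were added after seeing the data.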

Additional observations from a re-analysis of the deposited data

How the results depend on the processing

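Of 832 values of members recomputed under the alternatives, 69 called values kept their sign and call, 33 lost the call, 18 uncalled values gained one, and 56 changed sign where neither fit called them. No called value changed sign.

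For F266A against empty vector IPs, 1 member (Peg10) was called. The count was 0 without a filter and 3 (Peg10, Peg3 and Impact) in the additive fit over 9 libraries, or 4 (with Snrpn) when F266A IP1 was also left out. Leaving out single IPs gave 0 to 4, with 0 without either empty vector IP and 4 without F266A IP1. Over these alternatives Peg10 ranged from 1.67 to 2.03, at limma adjusted p from 0.000269 to 0.131. For WT against F266A IPs (1, Peg10) the count was 0 without a filter, with the filter of 0.1 RPKM and after median centring, 4 in the additive fit without F266A IP1, and 0 to 1 when single IPs were left out, where the 1 was Peg3 without F266A IP1. Peg10 ranged from -1.50 to -0.87 there, at limma adjusted p from 0.00224 to 0.26. For WT against empty vector IPs 0 members were called throughout. For IPs against inputs (5) the count was 0 without a filter, after quantile normalization and after median centring. It was 3 to 8 when single IPs were left out, with 8 without F266A IP2 and 3 without WT IP1. Of the 9787 genes tested, 5875 were called without F266A IP2 and 5157 without WT IP1. The study's rule (0 members) was met by 1 member, H19, with a common input, and by 0 to 2 when single IPs were left out (Mirg without F266A IP1, H19 without WT IP1, Dlk1 and Peg10 without WT IP2). The cause of these changes was not tested.

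Counts over all genes moved more. For F266A against empty vector IPs (445) they were 2 without a filter, 174 with the filter of 0.1 RPKM, 242 after quantile normalization, 1635 in the additive fit and 2531 in that fit without F266A IP1, and 0 to 480 when single IPs were left out, with 0 and 4 without empty vector IP1 and IP2. For WT against F266A IPs (114) they were 0 without a filter and with that of 0.1 RPKM, 976 and 1800 in the additive fits, and 0 to 196 when single IPs were left out. For WT against empty vector IPs (0) they were 2 without a filter, 1 with that of 0.1 RPKM, 2 after quantile normalization, 7 with the replicate block, 17 and 61 in the additive fits, and 0 to 7 when single IPs were left out. For IPs against inputs (5567) they were 3258 without a filter, 239 after quantile normalization, 153 after median centring, and 3998 to 5875 when single IPs were left out. For the differences in enrichment (0 each) they were, between F266A and empty vector, 88 and 107 with pseudocounts of 0.1 and 0.01 and 22 without a filter. Between WT and F266A they were 106 with the pseudocount of 0.01, 33 without a filter and 0 to 2 when single IPs were left out, and between WT and empty vector 45 without a filter. The study's rule (1157) was met by 518 of the filtered rows, by 723 after median centring, and by 1426 to 3354 when single IPs were left out.

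The IPs of the 3 lines share replicate numbers. The difference of IP1 minus IP2 correlated at 0.26 between WT and F266A, 0.11 between WT and empty vector and 0.01 between F266A and empty vector. The labels give no more than the shared number, and what else the replicates may share was not tested. With the replicate block, 607 genes, 1 of them a member, were called between F266A and empty vector IPs. Between WT and F266A IPs 154 genes were called, 1 of them a member. Between IPs and inputs 5847 of the 9787 genes tested were called, 7 of them members.

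Among the 10 members depth limits H19 and Dlk1 most, at no more than 54.0 and 25.7 estimated reads.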
